A study of Mus musculus with 10 samples.

Results

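The genes described here are 40 mouse genes of the endoplasmic reticulum (ER) stress response and of the amino acid programme that the transcription factor ATF4 controls. They were chosen by gene symbol from a table of 56748 genes, of which 16169 were expressed highly enough to be tested, and all 40 were among those tested. By role they comprise 9 regulators and stress effectors, 8 enzymes of amino acid and one-carbon metabolism, 4 amino acid transporters, 3 ER stress sensors, 9 ER chaperones and their partners, 3 protein disulfide isomerases and 4 genes of ER-associated degradation. When unfolded proteins accumulate in the ER, the kinase PERK phosphorylates the translation initiation factor eIF2 alpha, the nuclease IRE1 splices Xbp1 mRNA, and ATF6 is cut to release a transcription factor. Phosphorylated eIF2 alpha also follows amino acid shortage. It slows general translation while ATF4 is made, and ATF4 then induces genes that supply amino acids and other stress genes such as Ddit3. Cartilage and tendon cells secrete large amounts of collagen, so ER folding capacity is a known feature of these tissues.

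Poly(A) RNA was measured by bulk RNA sequencing in 10 libraries of reporter-positive cells, isolated at day 14 from cultures of 3xR, a mouse embryonic stem cell line that carries both an eGFP reporter named for Col2a1 (cartilage collagen) and a tdTomato reporter named for Prg4 (lubricin, of joint surfaces and tendon sheaths). There were 4 libraries of Col2a1-eGFP+ cells given DMSO, the solvent control (replicate numbers 1, 3, 4 and 5), 3 of Prg4-tdTomato+ cells given DMSO (numbers 1, 3 and 5), and 3 of Prg4-tdTomato+ cells given Fsk (numbers 1, 4 and 5). Fsk is not spelled out in the labels, and the abbreviation is in common use for forskolin, which activates adenylyl cyclase. All libraries come from 1 cell line, the labels say neither what a replicate number marks nor whether libraries came from separate cultures, so p-values reflect the spread between these libraries alone, and that spread may be technical.

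Total counts ranged from 15355459 to 20408696 per library. Col2a1 held 838, 2992, 983 and 1910.0 CPM in eGFP+ DMSO, 187, 390.1 and 82.0 in tdTomato+ DMSO, and 53.6, 19.7 and 27.5 in tdTomato+ Fsk, in the order of the replicate numbers, and the eGFP+ libraries did not overlap the tdTomato+ libraries. Prg4, which should mark the tdTomato+ cells, had 0 to 37 reads in eGFP+ libraries, 12 to 24 in tdTomato+ DMSO libraries and 11 to 14 in Fsk libraries, so this defining marker was close to 0 in every group. Of the marker lists of other cell types, 0 of 5 blood, 0 of 4 skeletal muscle, 1 of 5 endothelial and 1 of 4 pluripotency genes were expressed highly enough to be tested, against 4 of 4 epithelial and 4 of 5 neural genes. The epithelial genes summed to 15.2 to 107 CPM in eGFP+ DMSO, 3.03 to 25.97 in tdTomato+ DMSO and 7.72 to 68.8 in Fsk libraries. The neural genes summed to 12.7 to 49.6, 19.9 to 36.6 and 13.4 to 27.0 CPM in the same order.

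Among the 40 genes, the differences that passed edgeR's main tests lay between replicate numbers. With group as the only term, none of the 40 passed between tdTomato+ and eGFP+ DMSO cells. None passed between Fsk and DMSO in tdTomato+ cells, or between tdTomato+ Fsk and eGFP+ DMSO cells. This depends on the model. With the replicate number as a block, 2 of the 40 passed in each comparison with Fsk (3.14% and 5.07% of all genes), as given at the end. Between replicate numbers, with the group in the model, 12 of 40 (30%) passed, against 10.2% of all genes tested. That model takes a number effect to be equal in every group, although the pairing of the Fsk libraries by number is not clear. Libraries numbered 3 were higher than those numbered 1 in genes that included Ddit3, Atf4 and the serine and one-carbon enzyme genes Phgdh, Psat1 and Mthfd2. The transporter gene Slc7a1 and the chaperone genes Hspa5 and Dnajb9 were also higher, and Creld2 was lower. That comparison was chosen after the values were seen. Libraries numbered 5 were lower than those numbered 1 in the chaperone and folding genes Hsp90b1, Pdia6, Sdf2l1 and Creld2 and in Cebpb and Vldlr. They were higher in Phgdh. For Hsp90b1, Pdia6, Sdf2l1 and Creld2 the drop was smaller in Fsk than in both DMSO groups, and this difference between groups was not tested. Tests are edgeR's quasi-likelihood tests with Benjamini-Hochberg adjustment over all genes, called at an adjusted p below 0.05. Levels are CPM, reads of a gene scaled to a common library size, and the values of each group below run in the order of its replicate numbers. Differences are fitted log2 fold changes, the first named over the second.

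**Figure D1:**
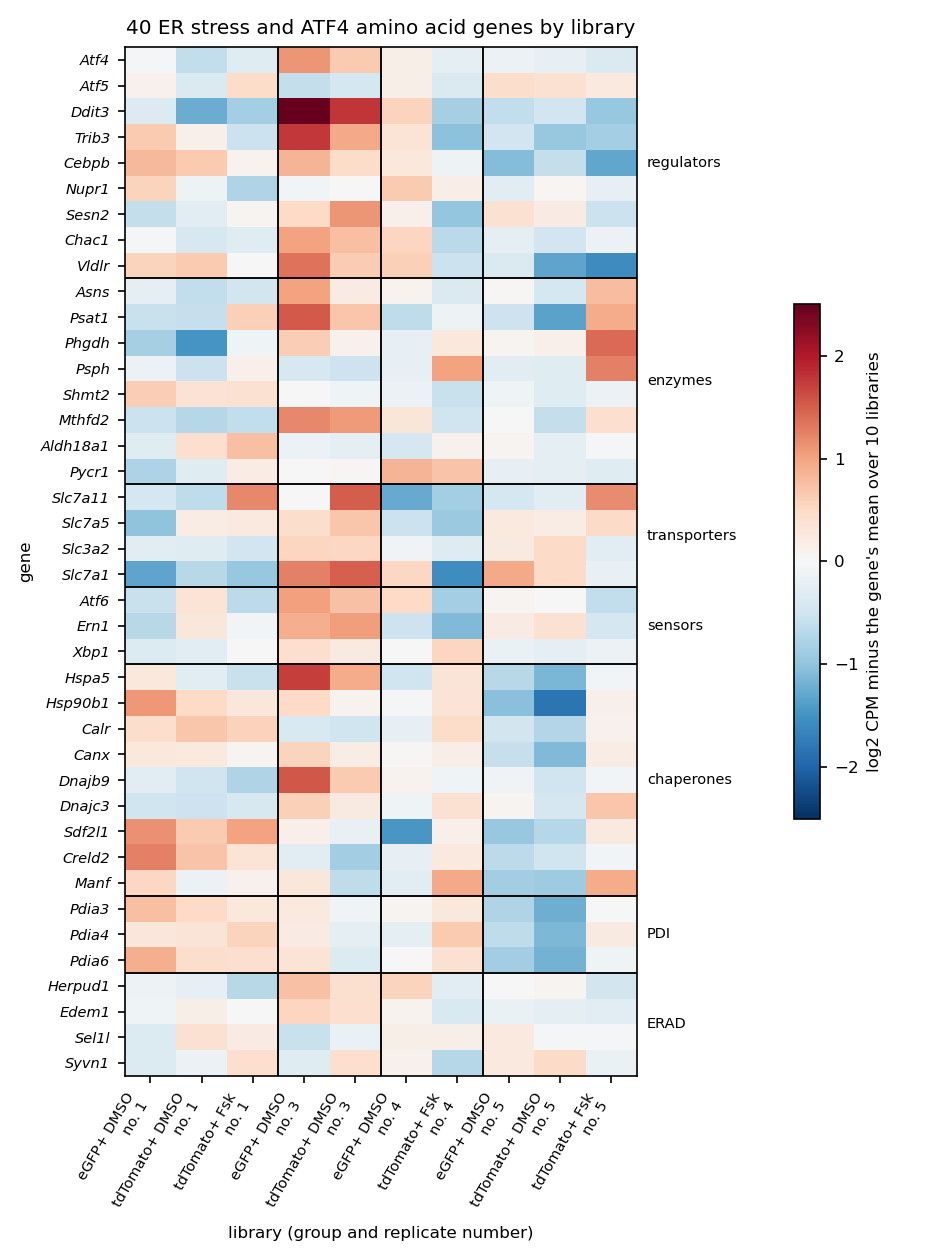
Each cell is 1 gene (rows, by role) in 1 library (columns, by replicate number, then group), coloured by its log2 CPM minus the gene's mean over the 10 libraries. The 2 columns numbered 3 are red for Ddit3, Atf4, Mthfd2, Slc7a1, Hspa5 and Dnajb9, and the DMSO columns numbered 5 are blue for Hsp90b1 and the 3 disulfide isomerases (PDI).

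The 40 genes together took 0.560% to 0.747% of the reads of a library. Per kilobase of exon, the mean level was highest for the chaperone gene Hspa5 (263 CPM per kb), followed by the disulfide isomerase gene Pdia3 (242), the calcium-binding chaperone gene Calr (194), Atf4 (170.3) and Hsp90b1 (137). The lowest per kilobase were Slc7a11 (0.179), Psph (2.20) and Ern1 (2.81), which encode a cystine transporter, the last enzyme of serine synthesis and the sensor IRE1. The ratio of the highest to the lowest library was 18.6 for Ddit3, 8.38 for Slc7a1, 7.66 for Vldlr, 7.64 for Slc7a11 and 7.55 for Hsp90b1, and it was lowest for Xbp1, at 1.84.

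Across replicate numbers, 3 tests were made in a model with group and number as additive terms. The Fsk libraries are in it, so their unclear pairing by number limits these tests too. The test of any difference between numbers called 12 genes (30% of the 40, against 10.2% of all genes). Number 5 against number 1, the only numbers present in all 3 groups, called 7 of 40 (17.5%, against 5.34% of all genes), of which 1 was higher (1.76% of all genes) and 6 were lower (3.58% of all genes). Number 3 against number 1 was chosen after these values were seen, and number 3 exists only in the DMSO groups. It called 12 of 40 (30%, against 11.8% of all genes), of which 11 were higher (4.62% of all genes) and 1 was lower (7.19% of all genes). In all, 17 genes passed at least 1 of these tests. The 3 tests overlap, and the share of all genes that passed at least 1 was not determined. The median log2 difference over the 40 genes was 0.01 for number 5 against 1, beside 0.02 over all genes, and 0.53 for number 3 against 1, beside -0.08 over all genes. Both libraries numbered 3 lay above all 8 others for 13 of the 40 genes, against 9.11% of all genes, and below them for 1 (Atf5), against 11.7% of all genes.

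These counts rest on single libraries. Counts over all genes tested in the same fits are given in brackets. For any number, the 12 calls (1647 of all genes) became 0 (159) without eGFP+ DMSO 3, 1 (104) without tdTomato+ DMSO 5, 4 without tdTomato+ DMSO 1 or 3 (253 and 489), 7 (905) without eGFP+ DMSO 5 and 27 (5738) without Fsk 1. For number 5 against 1, the 7 calls (863) became 0 (130) without tdTomato+ DMSO 1, 1 (110) without tdTomato+ DMSO 5, 3 without eGFP+ DMSO 1, 3 or 5 (293, 697 and 217) and 16 (3631) without Fsk 1. For number 3 against 1, the 12 calls (1909) became 0 (0) without eGFP+ DMSO 3, 2 (220) without tdTomato+ DMSO 3, 4 (416) without tdTomato+ DMSO 1, 5 (838) without eGFP+ DMSO 1, 7 (966) without tdTomato+ DMSO 5 and 20 (3695) without Fsk 1. Each called difference of number 5 or 3 against 1 kept its sign in all 10 of these fits.

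Other measures moved with the numbers, and their part in these results was not tested. The TMM scaling factors were 0.683 to 0.949 in number 3 and 1.15 to 1.39 in number 5, beside 0.863 to 1.08 in number 1. The 7 cartilage markers summed to 760 to 4369 CPM in number 3, 259 to 1382 in number 1 and 201 to 2925 in number 5. In number 3 against 1, 3 of the 7 were called higher (Col9a1, Col11a2 and Matn3) and 1 lower (Acan), with log2 differences of 2.69 for Col9a1 (adjusted p = 0.0065) and -1.61 for Acan (adjusted p = 0.0317), and Col2a1 and Sox9 were not called. The 4 tendon and joint markers summed to 107 to 119 CPM in number 3, 194 to 364 in number 1 and 183 to 400.3 in number 5. The 4 epithelial markers summed to 25.97 to 107 CPM in number 3, 5.89 to 68.8 in number 1 and 3.03 to 15.2 in number 5, and 3 of them differed between any numbers, Krt18 (adjusted p = 0.00343), Krt8 (0.022) and Epcam (0.0457). The 5 neural markers summed to 12.7 to 21.6 CPM in number 3, 15.8 to 21.2 in number 1 and 27.0 to 49.6 in number 5, and Map2 differed between any numbers (adjusted p = 0.0296). The 5 dissociation and stress genes summed to 599 to 749.9 CPM in number 3, 505 to 742 in number 1 and 288 to 702 in number 5, and they did not go one way. The cytosolic heat shock gene Hspa1a differed by -2.83 on the log2 scale in number 5 against 1 (adjusted p = 0.000637) and by 1.48 in number 3 against 1 (adjusted p = 0.0104), and Hspa1b by -2.15 (adjusted p = 0.00288) and 1.82 (adjusted p = 0.0067). Fos differed by -1.99 in number 3 against 1 (adjusted p = 0.00687). In bulk samples, fewer cells of a type and less RNA per cell cannot be told apart.

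**Figure D2:**
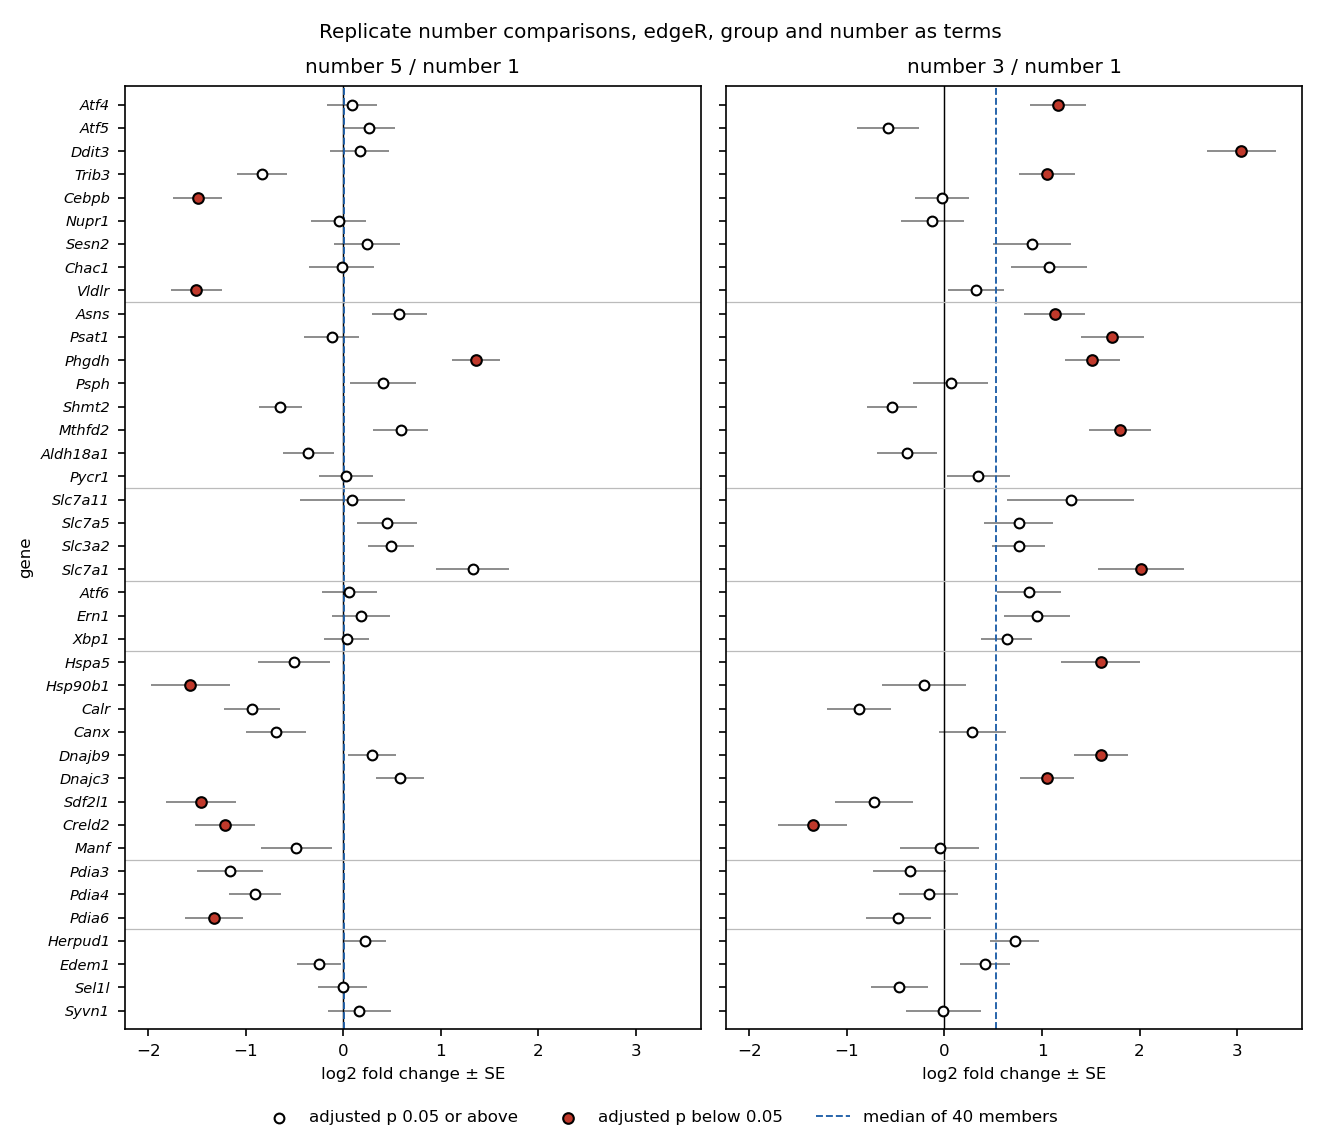
Points are edgeR log2 fold changes with bars of 1 SE for number 5 over number 1 (left) and number 3 over number 1 (right), with genes in rows by role, filled where the adjusted p is below 0.05 and with the median of the 40 genes as a dashed line. On the left 1 gene is called higher and 6 lower, and on the right 11 are called higher and 1 lower, with Ddit3 farthest out at 3.04.

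Among the regulators, Atf4 (chr15:80255184-80257541, plus strand of GRCm38, as are all gene positions here) encodes the factor that gives the programme its name. Atf4 held 365, 809.5, 417 and 340.0 CPM in eGFP+ DMSO, 245, 592 and 326 in tdTomato+ DMSO, and 305, 323 and 294 in tdTomato+ Fsk. Both libraries numbered 3 were above all others, and number 3 against 1 gave a log2 difference of 1.16 (SE 0.29, adjusted p = 0.0269). Ddit3 (chr10:127290774-127296288, plus strand) encodes CHOP, a factor made late in unresolved stress. Ddit3 held 48.8, 484, 91.3 and 40.2 CPM in eGFP+ DMSO, 26.1, 215 and 44.6 in tdTomato+ DMSO, and 34.1, 34.7 and 32.1 in tdTomato+ Fsk. Its 2 libraries numbered 3 stood far above the other 8, and the eGFP+ and tdTomato+ DMSO libraries numbered 3 held 9.91 and 8.24 times as much as the libraries numbered 1 of their own group. Number 3 against 1 gave a log2 difference of 3.04 (SE 0.35, adjusted p = 0.00269), while number 5 against 1 gave a log2 difference of 0.17 (SE 0.30, adjusted p = 0.769). Exons of Ddit3 overlap those of Mars, the methionyl-tRNA synthetase gene of the other strand, and the use of strand in counting is not known. Mars itself (Mars1 in the table) gave a log2 difference of 0.24 (SE 0.27, adjusted p = 0.592) for number 3 against 1.

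Trib3 encodes a pseudokinase that is induced by ATF4 and CHOP and restrains them. Trib3 held 72.2, 155, 57.9 and 32.8 CPM in eGFP+ DMSO, 49.9, 88.8 and 23.6 in tdTomato+ DMSO, and 31.6, 22.5 and 25.4 in tdTomato+ Fsk. The libraries numbered 3 were the highest, and number 3 against 1 gave a log2 difference of 1.05 (SE 0.29, adjusted p = 0.0358). Cebpb (chr2:167688915-167690418, plus strand) encodes a leucine zipper factor that pairs with ATF4 and CHOP. Cebpb held 219, 225, 150.1 and 59.2 CPM in eGFP+ DMSO, 198, 172 and 83.1 in tdTomato+ DMSO, and 133, 115 and 50.9 in tdTomato+ Fsk. All 3 libraries numbered 5 lay below the other 7, the only gene of the 40 for which they did (4.08% of all genes, and they lay above the other 7 for none, against 4.11%), and number 5 against 1 gave a log2 difference of -1.50 (SE 0.25, adjusted p = 0.0075). Its exons overlap Tmem189 of the other strand. Vldlr (chr19:27216484-27254231, plus strand), a lipoprotein receptor gene known as an ATF4 target, held 61.6, 106, 62.6 and 32.5 CPM in eGFP+ DMSO, 65.8, 65.1 and 16.6 in tdTomato+ DMSO, and 41.2, 28.8 and 13.9 in tdTomato+ Fsk. The library numbered 5 was the lowest of each group, and number 5 against 1 gave a log2 difference of -1.51 (SE 0.26, adjusted p = 0.00894).

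The other 4 regulators did not pass any test. They are Atf5, a relative of Atf4, Nupr1, a small stress-induced nuclear protein gene, Sesn2, whose product senses leucine for mTORC1, and Chac1, whose product degrades glutathione. Chac1 and Sesn2 were higher in both libraries numbered 3 than in all others, with a log2 difference of 1.07 (SE 0.39, adjusted p = 0.0894) and a log2 difference of 0.90 (SE 0.40, adjusted p = 0.158) for number 3 against 1. Atf5 was lower in both libraries numbered 3 than in all others, with a log2 difference of -0.58 (SE 0.32, adjusted p = 0.245), and its exons overlap Nup62 of the other strand. With 1 library left out, number 3 against 1 was no longer called for Ddit3 without eGFP+ DMSO 3 (adjusted p = 0.0953). For Trib3 the call was also lost without eGFP+ DMSO 1 or tdTomato+ DMSO 1, 3 or 5 (adjusted p 0.0736 to 0.258). For Atf4 it was lost without eGFP+ DMSO 1, 3 or 4, tdTomato+ DMSO 1 or 3 or Fsk 4 (adjusted p 0.0553 to 0.217). Number 5 against 1 was no longer called for Cebpb without tdTomato+ DMSO 1 (adjusted p = 0.0573) and for Vldlr without tdTomato+ DMSO 1 or 5 (adjusted p 0.0992 and 0.0854).

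**Figure D3:**
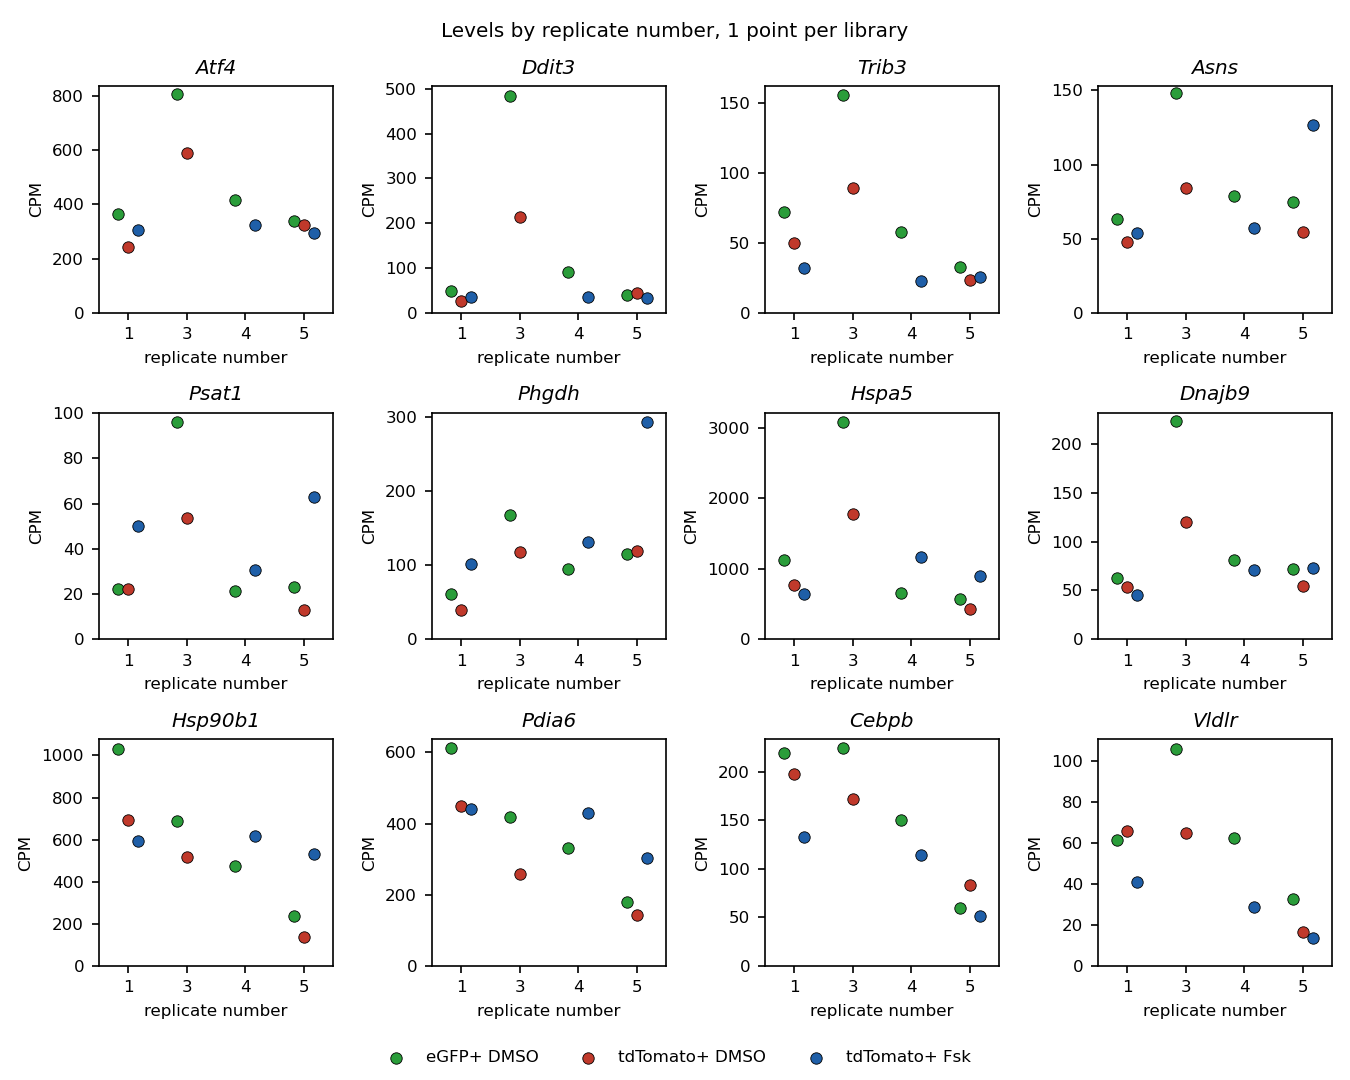
Each panel shows the CPM (linear axis from 0) of 1 gene in the 10 libraries, 1 point per library, by replicate number and coloured by group. Both libraries numbered 3 are the highest points for Atf4, Ddit3, Trib3, Hspa5 and Dnajb9, whereas Phgdh and Asns are also high in the Fsk library numbered 5, at 293 and 126 CPM, and for Hsp90b1 the 2 DMSO libraries numbered 5 are the lowest points.

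Among the enzymes, 4 of 8 genes were called higher in number 3 than in number 1 (4.62% of all genes). Of them, Phgdh was also called higher in number 5 than in number 1 (1.76% of all genes). Phgdh (chr3:98313170-98339990, minus strand), which encodes the enzyme that commits glycolytic carbon to serine, held 61.7, 167, 94.3 and 115 CPM in eGFP+ DMSO, 39.2, 119 and 119 in tdTomato+ DMSO, and 101, 132 and 293 in tdTomato+ Fsk. The library numbered 1 was the lowest of each group and the Fsk library numbered 5 the highest of all. It gave a log2 difference of 1.36 (SE 0.25, adjusted p = 0.0118) for number 5 against 1 and a log2 difference of 1.52 (SE 0.28, adjusted p = 0.00963) for number 3 against 1. Psat1, the next enzyme of the path, held 22.5, 96.1, 21.3 and 23.2 CPM in eGFP+ DMSO, 22.1, 53.5 and 13.1 in tdTomato+ DMSO, and 50, 30.5 and 62.9 in tdTomato+ Fsk. In DMSO the libraries numbered 3 were the highest, but the Fsk library numbered 5 lay between them, and number 3 against 1 gave a log2 difference of 1.72 (SE 0.32, adjusted p = 0.00986). Psph, the last enzyme, held 7.78, 6.47, 7.45 and 7.12 CPM in eGFP+ DMSO, 5.89, 5.95 and 6.95 in tdTomato+ DMSO, and 9.39, 17.5 and 20.7 in tdTomato+ Fsk. Its 3 Fsk libraries were the highest of the 10, and number 3 against 1 gave a log2 difference of 0.06 (SE 0.39, adjusted p = 0.934). Exons of Psph overlap a transcript of Cct6a on the other strand, an abundant chaperonin gene.

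Mthfd2, a mitochondrial folate enzyme gene, held 36.4, 122, 65.4 and 52.2 CPM in eGFP+ DMSO, 32.1, 109.9 and 34.9 in tdTomato+ DMSO, and 34.2, 37.4 and 70.7 in tdTomato+ Fsk. The 2 libraries numbered 3 exceeded all others, and number 3 against 1 gave a log2 difference of 1.80 (SE 0.32, adjusted p = 0.00863). Asns encodes asparagine synthetase, the usual readout of ATF4 at amino acid response elements. Asns held 63.4, 148, 78.8 and 75.0 CPM in eGFP+ DMSO, 47.9, 84.5 and 54.4 in tdTomato+ DMSO, and 53.9, 57.0 and 126 in tdTomato+ Fsk. The eGFP+ library numbered 3 was the highest and the Fsk library numbered 5 the second, above the tdTomato+ library numbered 3, and number 3 against 1 gave a log2 difference of 1.13 (SE 0.31, adjusted p = 0.0375). Shmt2, which makes glycine and one-carbon units in mitochondria, and the proline synthesis genes Aldh18a1 and Pycr1 passed no test. Shmt2, whose exons overlap the abundant Ndufa4l2 of the other strand, ranged from 62.6 to 141 CPM, Aldh18a1 from 50.4 to 113 and Pycr1 from 14.9 to 46.2. With 1 library left out, number 3 against 1 was no longer called for Mthfd2 or Psat1 without either library numbered 3 (adjusted p 0.0596 to 0.151). It was no longer called for Phgdh without these or tdTomato+ DMSO 1 (adjusted p 0.0612 to 0.144), or for Asns without eGFP+ DMSO 1 or 3 or tdTomato+ DMSO 1, 3 or 5 (adjusted p 0.0774 to 0.264). Number 5 against 1 was lost for Phgdh without tdTomato+ DMSO 1 or 5 (adjusted p 0.1 and 0.0928).

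Of the 4 transporters, Slc7a1, which imports arginine and lysine, passed. Slc7a1 held 16.3, 96.9, 58.4 and 78.4 CPM in eGFP+ DMSO, 25.0, 115 and 56.5 in tdTomato+ DMSO, and 21.2, 13.8 and 35.9 in tdTomato+ Fsk. The highest were the 2 libraries numbered 3, the libraries numbered 5 were above those numbered 1 in each group, with a log2 difference of 2.02 (SE 0.44, adjusted p = 0.0169) for number 3 against 1 and a log2 difference of 1.33 (SE 0.38, adjusted p = 0.0637) for number 5 against 1. The call for number 3 was lost without eGFP+ DMSO 1 or 3 or tdTomato+ DMSO 1 or 3 (adjusted p 0.050 to 0.130). Slc3a2, the heavy chain that carries Slc7a5 and Slc7a11 to the membrane, held 193, 341, 222 and 273 CPM in eGFP+ DMSO, 189, 337 and 324 in tdTomato+ DMSO, and 167, 187 and 191 in tdTomato+ Fsk. It was highest in the 2 libraries numbered 3, with a log2 difference of 0.76 (SE 0.27, adjusted p = 0.0881). Slc7a11, the cystine and glutamate exchanger, held 1.45, 2.01, 0.772 and 1.44 CPM in eGFP+ DMSO, 1.25, 5.90 and 1.64 in tdTomato+ DMSO, and 4.73, 1.07 and 4.65 in tdTomato+ Fsk. It stood highest in tdTomato+ DMSO 3, at few reads throughout, and number 3 against 1 gave a log2 difference of 1.30 (SE 0.65, adjusted p = 0.206). Slc7a5, the leucine transporter, ranged from 24.3 to 79.3 CPM and gave a log2 difference of 0.76 (SE 0.35, adjusted p = 0.173).

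A short letter pattern known to bind ATF4 with a C/EBP partner, TGATGNAA, was searched on both strands in the 250 bases upstream of the RefSeq start sites. Promoters were found for 37 of the 40 genes, and the pattern was in those of 7, Nupr1, Chac1, Vldlr, Asns, Pycr1, Slc7a11 and Herpud1, beside 3.45% of 32851 promoters of all genes. A match is a description of letters only. Of these 7 genes, Vldlr was called lower in number 5 and Asns higher in number 3, each against number 1, and the others were not called. The called genes Ddit3, Trib3, Psat1, Phgdh and Mthfd2 had no match. The sites of Vldlr, Asns, Chac1 and Slc7a11 are shown to set the letters beside the levels above. They are written 5′ to 3′ on the named strand of GRCm38.p6 (RefSeq), with the pattern in capitals. Those of Asns and Nupr1 lie upstream of the RefSeq start but inside the gene as GENCODE draws it, from an outer start. Vldlr has an outer and an inner RefSeq start. Its site lies between them, and the GENCODE gene begins at the outer one. Slc7a11 holds 2 sites on opposite strands.
Vldlr, chr19:27216812-27216835, minus strand: aggagcgcTGATGCAActattgct
Asns, chr6:7693217-7693240, minus strand: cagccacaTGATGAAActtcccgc
Chac1, chr2:119351041-119351064, minus strand: ggcaggagTGATGCAAcggcaggg
Slc7a11, chr3:50443664-50443687, minus strand: catgtggcTGATGCAAacctggag
Slc7a11, chr3:50443645-50443668, plus strand: ctgcatgaTGATGCAAattctcca

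Of the 3 ER stress sensors, none passed a test. Atf6, the membrane-bound precursor of a transcription factor, held 32.1, 96.2, 66.1 and 49.5 CPM in eGFP+ DMSO, 60, 78.7 and 46.7 in tdTomato+ DMSO, and 29.8, 26.1 and 30.8 in tdTomato+ Fsk. It was highest in the libraries numbered 3 and lowest in the 3 Fsk libraries, and number 3 against 1 gave a log2 difference of 0.86 (SE 0.33, adjusted p = 0.104). Ern1, which encodes IRE1, held 12.8, 38.7, 14.4 and 23.9 CPM in eGFP+ DMSO, 25.2, 42.6 and 27.1 in tdTomato+ DMSO, and 19.6, 9.56 and 15.4 in tdTomato+ Fsk. It was likewise highest in the libraries numbered 3, with a log2 difference of 0.95 (SE 0.34, adjusted p = 0.0891). Xbp1, whose mRNA IRE1 splices, held 149, 255, 189 and 169 CPM in eGFP+ DMSO, 156, 222 and 161 in tdTomato+ DMSO, and 188, 275 and 172 in tdTomato+ Fsk. Its highest and lowest libraries were the closest of the 40 genes, and number 3 against 1 gave a log2 difference of 0.64 (SE 0.26, adjusted p = 0.13). Gene counts do not separate spliced from unspliced Xbp1 mRNA.

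The 9 chaperone genes did not move alike. Hspa5 (chr2:34771970-34777547, plus strand) encodes BiP, the main ER chaperone and the usual readout of the ATF6 and XBP1 branches. Hspa5 held 1121, 3084, 658 and 579 CPM in eGFP+ DMSO, 775, 1784 and 423 in tdTomato+ DMSO, and 637, 1163 and 892 in tdTomato+ Fsk. Both libraries numbered 3 were above all others, at 2.75 and 2.30 times the library numbered 1 of their group, and number 3 against 1 gave a log2 difference of 1.60 (SE 0.41, adjusted p = 0.0286). Dnajb9, a J-domain partner of BiP, held 62.7, 223, 81.3 and 72.2 CPM in eGFP+ DMSO, 53.9, 119.8 and 54.2 in tdTomato+ DMSO, and 45.0, 70.9 and 72.5 in tdTomato+ Fsk. Again the 2 libraries numbered 3 were the highest, and number 3 against 1 gave a log2 difference of 1.60 (SE 0.27, adjusted p = 0.00743). Dnajc3, another J-domain protein of the ER, held 95.7, 205, 125 and 141 CPM in eGFP+ DMSO, 94.4, 158 and 102 in tdTomato+ DMSO, and 102, 176 and 218 in tdTomato+ Fsk. Its highest library was Fsk 5, above both libraries numbered 3, and number 3 against 1 gave a log2 difference of 1.05 (SE 0.28, adjusted p = 0.0324).

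Hsp90b1 (chr10:86690209-86705509, minus strand) encodes the ER form of the chaperone HSP90. Hsp90b1 held 1033, 689, 474 and 237 CPM in eGFP+ DMSO, 692, 516 and 137 in tdTomato+ DMSO, and 596, 615 and 529.7 in tdTomato+ Fsk. The 2 DMSO libraries numbered 5 were the lowest, at 0.229 and 0.198 times the libraries numbered 1 of their groups, against 0.889 times in the Fsk pair, and this difference between groups was not tested. Number 5 against 1 gave a log2 difference of -1.57 (SE 0.40, adjusted p = 0.0446) and number 3 against 1 gave a log2 difference of -0.21 (SE 0.43, adjusted p = 0.786). Sdf2l1, a cofactor of BiP, held 23.8, 11.7, 3.86 and 5.52 CPM in eGFP+ DMSO, 17, 9.47 and 6.55 in tdTomato+ DMSO, and 21.8, 11.8 and 12.7 in tdTomato+ Fsk. The library numbered 1 was the highest of each group, and number 5 against 1 gave a log2 difference of -1.46 (SE 0.36, adjusted p = 0.0393). Creld2, an ER protein gene induced by unfolded proteins, held 97.1, 33.3, 35.2 and 25.5 CPM in eGFP+ DMSO, 66.7, 22 and 28.7 in tdTomato+ DMSO, and 51.3, 48.0 and 38.4 in tdTomato+ Fsk. Its 3 libraries numbered 1 were the highest of the 10. It gave a log2 difference of -1.21 (SE 0.31, adjusted p = 0.0432) for number 5 against 1 and a log2 difference of -1.35 (SE 0.35, adjusted p = 0.0313) for number 3 against 1, so that Creld2 and Hspa5 differed from number 1 in opposite directions in the libraries numbered 3.

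Calr and Canx, the lectin chaperones of glycoproteins, and Manf, a secreted and ER-resident protective factor, did not pass. Calr ranged from 318 to 857 CPM and gave a log2 difference of -0.94 (SE 0.29, adjusted p = 0.08) for number 5 against 1, and Canx ranged from 187 to 591 and gave a log2 difference of -0.69 (SE 0.31, adjusted p = 0.197). Manf, whose exons overlap Dcaf1 and Rbm15b, held 223, 188, 128 and 85.2 CPM in eGFP+ DMSO, 139, 99.99 and 84.0 in tdTomato+ DMSO, and 168, 301 and 295 in tdTomato+ Fsk. The Fsk libraries numbered 4 and 5 were its highest, and number 5 against 1 gave a log2 difference of -0.48 (SE 0.37, adjusted p = 0.444). With 1 library left out, number 3 against 1 was no longer called for Dnajb9 without eGFP+ DMSO 3 (adjusted p = 0.153), and for Hspa5 or Creld2 without eGFP+ DMSO 1 or 3 or tdTomato+ DMSO 1, 3 or 5 (adjusted p 0.052 to 0.250). For Dnajc3 it was lost without these or eGFP+ DMSO 4 or Fsk 4 (adjusted p 0.0605 to 0.244). Number 5 against 1 was lost without 7 of the 10 libraries for Hsp90b1 and Creld2, namely all DMSO libraries (adjusted p 0.055 to 0.245). For Sdf2l1 it was lost without eGFP+ DMSO 1, 3 or 5, tdTomato+ DMSO 1 or 5 or Fsk 5 (adjusted p 0.0522 to 0.188).

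The ER stress response element, the letters CCAAT and CCACG with any 9 bases between them, is known to bind NF-Y and ATF6. Searched on both strands, it was in the 250 upstream bases of 8 of the 37 genes with a promoter (counted by gene), beside 0.113% of all promoters (counted by promoter). Those genes are Hspa5, Hsp90b1, Calr, Canx, Dnajc3, Creld2, Pdia6 and Syvn1. A second form, ATTGG and CCACG with any 1 base between them, was in 1 (Herpud1), beside 0.0304% of all promoters, and TGACGTGG, a binding site of ATF6 and XBP1, was in 0 of the 37, beside 0.563%. The sites of 6 of these genes are shown because their levels went different ways, with Hspa5 and Dnajc3 higher in number 3, Creld2 lower in number 3 and in number 5, Hsp90b1 and Pdia6 lower in number 5, and Canx not called. Each is oriented so that the pattern, in capitals, reads 5′ to 3′ on the named strand of GRCm38.p6. The Hspa5 site lies upstream of the RefSeq start but inside the gene position given above, which begins at an outer GENCODE start, and the other sites shown lie upstream of both starts.
Hspa5, chr2:34772020-34772048, plus strand: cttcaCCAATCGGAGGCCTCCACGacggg
Dnajc3, chr14:118937822-118937850, plus strand: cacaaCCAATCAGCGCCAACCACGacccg
Creld2, chr15:88819515-88819543, minus strand: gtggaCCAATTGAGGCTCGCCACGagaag
Pdia6, chr12:17266486-17266514, plus strand: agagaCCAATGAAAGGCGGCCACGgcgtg
Canx, chr11:50325795-50325823, minus strand: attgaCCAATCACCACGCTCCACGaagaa
Hsp90b1, chr10:86705633-86705661, minus strand: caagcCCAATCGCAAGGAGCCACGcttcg
Hsp90b1, chr10:86705528-86705556, plus strand: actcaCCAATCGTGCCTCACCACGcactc

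Hsp90b1 carries 2 such sites in opposite orientations. They are shown in their promoter, upstream of both the RefSeq and the GENCODE starts, with each site in capitals and the second read from the other strand.
Hsp90b1, chr10:86705510-86705694, minus strand: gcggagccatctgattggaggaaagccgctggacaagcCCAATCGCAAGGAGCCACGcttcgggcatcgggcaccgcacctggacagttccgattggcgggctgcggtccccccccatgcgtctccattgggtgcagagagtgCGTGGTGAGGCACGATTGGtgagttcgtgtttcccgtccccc

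All 3 disulfide isomerase genes were lower in each library numbered 5 than in the library numbered 1 of its group. For Pdia6 the ratio of number 5 to number 1 was 0.294 in eGFP+ DMSO, 0.322 in tdTomato+ DMSO and 0.688 in Fsk. The Fsk ratio was also the highest of the groups for Pdia3 (0.842) and Pdia4 (0.799). This difference between groups was not tested. Pdia6 held 614, 418, 330.2 and 180.4 CPM in eGFP+ DMSO, 448, 259 and 144 in tdTomato+ DMSO, and 441, 428 and 304 in tdTomato+ Fsk. Number 5 against 1 gave a log2 difference of -1.33 (SE 0.30, adjusted p = 0.0274), a call that was lost without eGFP+ DMSO 1, 3 or 5 or tdTomato+ DMSO 1 or 5 (adjusted p 0.0516 to 0.183). Pdia3, which folds glycoproteins with Calr and Canx, held 1195, 845, 744 and 423 CPM in eGFP+ DMSO, 1010.5, 657 and 307 in tdTomato+ DMSO, and 855, 850.5 and 719.8 in tdTomato+ Fsk. It gave a log2 difference of -1.16 (SE 0.33, adjusted p = 0.0656) for number 5 against 1 and did not pass. Pdia4, a larger isomerase, ranged from 82.9 to 286 CPM and gave a log2 difference of -0.91 (SE 0.27, adjusted p = 0.0699).

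No gene of ER-associated degradation passed a test. Herpud1, a scaffold of the degradation complex at the ER membrane, held 91.1, 166, 146 and 101 CPM in eGFP+ DMSO, 86.3, 131 and 105 in tdTomato+ DMSO, and 61.3, 82.2 and 72.1 in tdTomato+ Fsk. The eGFP+ library numbered 3 was the highest and the 3 Fsk libraries were the lowest, and number 3 against 1 gave a log2 difference of 0.72 (SE 0.25, adjusted p = 0.0845). Edem1, which directs misfolded glycoproteins to degradation, ranged from 76.6 to 145 CPM, and Sel1l and Syvn1, the adaptor and the ubiquitin ligase of the complex, from 57.1 to 109 and from 28.7 to 65.2. Edem1 was higher in both libraries numbered 3 than in all others, with a log2 difference of 0.42 (SE 0.26, adjusted p = 0.314). Exons of Syvn1 overlap Mrpl49 of the other strand.

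TdTomato+ and eGFP+ DMSO cells were compared to describe how the sorts differ. With group as the only term, 0 of the 40 genes passed edgeR's test, against 0 of 16169 genes (0%). In that fit 0 of the 40 had an unadjusted p below 0.05, against 221 of all genes. DESeq2 and limma-voom also called 0 of the 40. The replicate numbers pair these libraries, and with the number as a block 14 genes passed (0.0866% of all genes), none of them among the 40. The groups overlapped for all 40, against 1.6% of all genes with tdTomato+ above eGFP+ and 1.15% below. Within each of the 3 shared numbers, 16 of the 40 were lower in the tdTomato+ library (13.6% of all genes) and 2 were higher, Ern1 and Syvn1 (18.5% of all genes). The median log2 difference was -0.23 over the 40 genes, beside 0.02 over all genes.

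With group as the only term, the smallest p-values in that comparison belonged to Slc7a11, Manf and Asns. Slc7a11 averaged 2.93 ± 2.58 CPM (SD, n = 3) in tdTomato+ and 1.42 ± 0.507 CPM (SD, n = 4) in eGFP+ DMSO cells, with a log2 difference of 1.04 (SE 0.69, adjusted p = 1). Without tdTomato+ DMSO 3, the difference was 0.03. Manf gave a log2 difference of -0.53 (SE 0.38, adjusted p = 1) and Asns a log2 difference of -0.55 (SE 0.40, adjusted p = 1), and all 3 had overlapping groups. Hspa5 averaged 994 ± 706 CPM (SD, n = 3) and 1360.4 ± 1174 CPM (SD, n = 4) in the same order, and Ddit3 95.1 ± 104 CPM (SD, n = 3) and 166 ± 213 CPM (SD, n = 4). In both, the SD within each group exceeded the difference between the means. That spread includes the libraries numbered 3, the highest of both groups. Within numbers 1, 3 and 5, tdTomato+ differed from eGFP+ by -0.53, -0.79 and -0.45 on the log2 scale for Hspa5. For Ddit3 the values were -0.90, -1.17 and 0.15. With the number as a block, edgeR's smallest unadjusted p-values were those of Trib3 (0.0196), Ddit3 (0.0288) and Asns (0.0365), each with an adjusted p of 0.835.

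The comparison of Fsk with DMSO in tdTomato+ cells asks what the treatment changed. Of the 40 genes, 0 passed edgeR's test, against 92 of all genes (0.569%), and 5 of the 40 had an unadjusted p below 0.05, 2 higher and 3 lower, against 1681 of all genes. DESeq2 called 1 of the 40, Psph, and limma-voom 0. With the replicate number as a block, 2 of the 40 passed, Psat1 and Phgdh (3.14% of all genes), as given at the end. These libraries share only a number, and their pairing is not clear. The Fsk libraries lay above the DMSO libraries for 2 of the 40, Psph and Manf (9.01% of all genes), and below for 3, Atf6, Ern1 and Herpud1 (7.98% of all genes). Within both shared numbers, 1 and 5, 15 of the 40 were higher with Fsk (25.5% of all genes) and 9 lower (27.5%). The median log2 difference was -0.02 over the 40 genes and -0.03 over all genes. Libraries numbered 3 exist only in the DMSO groups, and without both of them 0 of the 40 passed as well.

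Psph averaged 15.9 ± 5.84 CPM (SD, n = 3) with Fsk and 6.26 ± 0.594 CPM (SD, n = 3) in DMSO, a log2 difference of 1.34 (SE 0.38, adjusted p = 0.162), and the groups did not overlap. Manf averaged 254 ± 75.0 CPM (SD, n = 3) and 108 ± 28.3 CPM (SD, n = 3), with a log2 difference of 1.24 (SE 0.41, adjusted p = 0.239). Atf6 averaged 28.9 ± 2.43 CPM (SD, n = 3) and 61.8 ± 16.1 CPM (SD, n = 3), with a log2 difference of -1.10 (SE 0.38, adjusted p = 0.276). Each of these 3 differences kept its sign when any library of the groups compared was left out, and none passed in those fits. Ddit3 averaged 33.7 ± 1.36 CPM (SD, n = 3) and 95.1 ± 104 CPM (SD, n = 3), with a log2 difference of -1.50 (SE 0.90, adjusted p = 0.629). The 3 Fsk libraries of Ddit3 agreed to within a few CPM, and the DMSO mean rests on the library numbered 3, at 215 CPM beside 26.1 and 44.6.

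**Figure D4:**
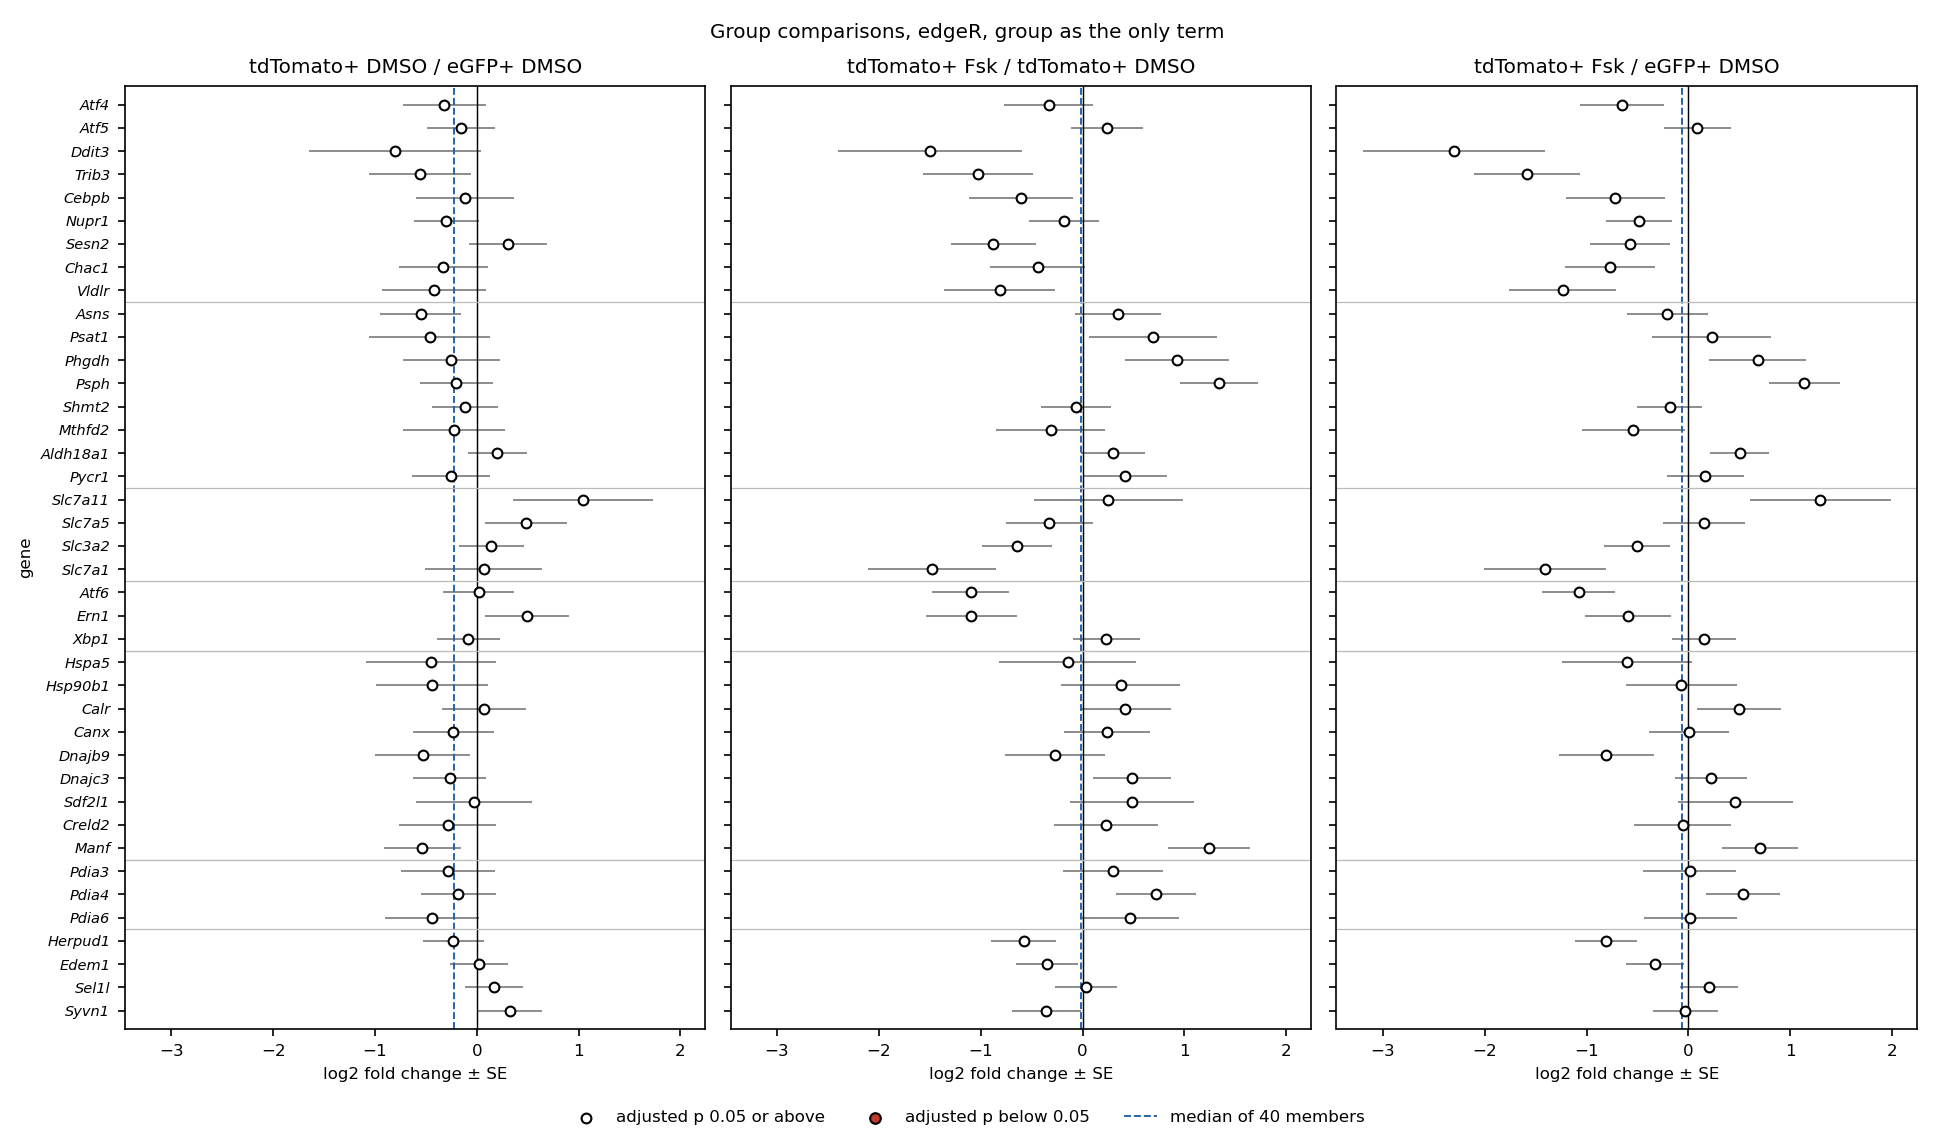
Points are edgeR log2 fold changes with bars of 1 SE for the 40 genes (rows, by role) in the 3 comparisons of groups, with the median of the 40 genes as a dashed line. No point is filled, since no adjusted p was below 0.05, and the bar is widest for Ddit3, whose DMSO libraries numbered 3 stand apart.

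TdTomato+ Fsk cells against eGFP+ DMSO cells differ in reporter and treatment at once, which cannot be told apart. Of the 40 genes, 0 passed edgeR's test, against 220 of all genes (1.36%), and 7 of the 40 had an unadjusted p below 0.05, 1 higher and 6 lower, against 1930 of all genes. DESeq2 called 1, Psph, and limma-voom 0. The replicate block called 2, Trib3 and Vldlr (5.07% of all genes), with the same limit. The Fsk libraries lay below the eGFP+ libraries for 6 of the 40 (5.16% of all genes), Atf4, Ddit3, Trib3, Slc3a2, Atf6 and Herpud1, and above for 1, Psph (6.59% of all genes). Within the 3 shared numbers, 1, 4 and 5, 8 of the 40 were higher (17.4% of all genes) and 9 lower (17.1%). Psph gave a log2 difference of 1.14 (SE 0.35, adjusted p = 0.159), Trib3 a log2 difference of -1.58 (SE 0.52, adjusted p = 0.192) and Atf6 a log2 difference of -1.08 (SE 0.36, adjusted p = 0.196). Trib3 averaged 26.5 ± 4.65 CPM (SD, n = 3) in Fsk and 79.6 ± 53.1 CPM (SD, n = 4) in eGFP+ DMSO cells. This comparison shares its Fsk libraries with the preceding one, so the values of the 2 are not independent.

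Other genes of these pathways were taken from 7 lists of 92 genes, of which 91 were tested. Between replicate numbers 13 of the 91 (14.3%) passed, against 10.2% of all genes, namely 1 of 7 genes of the eIF2 alpha kinases and phosphatases (Ppp1r15a), 6 of 21 other ATF4 targets (Cebpg, Ddit4, Eif4ebp1, Gdf15, Fgf21 and Mthfd1l), 2 of 19 tRNA synthetases (Sars and Rars), 2 of 15 other ER folding genes (Ero1l and Kdelr3), 1 of 12 other degradation genes (Derl1), 1 of 7 of the OASIS family and site proteases (Atf6b) and 0 of 10 of secretory transport. Gdf15, a secreted stress cytokine, held 13.4, 82.1, 17.8 and 3.82 CPM in eGFP+ DMSO, 5.32, 81.3 and 2.08 in tdTomato+ DMSO, and 1.45, 0.956 and 0.693 in tdTomato+ Fsk. In the libraries numbered 3 it stood far above the others, of which eGFP+ DMSO 4 was the highest, and number 3 against 1 gave a log2 difference of 3.26 (SE 0.43, adjusted p = 0.00441). Fgf21, a stress-induced hormone gene, held 7.58, 63.2, 24.4 and 9.08 CPM in eGFP+ DMSO, 9.95, 54.9 and 10.2 in tdTomato+ DMSO, and 8.18, 14.5 and 11.9 in tdTomato+ Fsk. It too was highest in both libraries numbered 3, with a log2 difference of 2.74 (SE 0.33, adjusted p = 0.00313). Ppp1r15a, which encodes the subunit that ends eIF2 alpha phosphorylation, gave a log2 difference of 1.14 (SE 0.26, adjusted p = 0.0186).

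In number 3 against 1, 11 of the 91 genes (12.1%) were called higher, against 4.62% of all genes, and 3 (3.3%) lower, against 7.19%. Of the 19 tRNA synthetase genes, 5 (26.3%) were called higher (Sars, Nars, Eprs, Tars and Rars) and 0 lower. Sars gave a log2 difference of 1.36 (SE 0.30, adjusted p = 0.0173). Of the 21 other ATF4 targets, 3 were called higher and 1 lower, and of the 12 other degradation genes 1 higher and 1 lower. Atf6b, the relative of Atf6, was also called lower, with a log2 difference of -1.93 (SE 0.27, adjusted p = 0.00545). In number 5 against 1, 4 of the 91 genes (4.4%) were called lower, close to the 3.58% of all genes, and 0 higher, against 1.76%. They are Ddit4, Ero1l, Mthfd1l and Derl3. Ddit4, an inhibitor of mTORC1, gave a log2 difference of -1.74 (SE 0.28, adjusted p = 0.00662), and Ero1l, the oxidase that recharges disulfide isomerases, gave a log2 difference of -1.38 (SE 0.28, adjusted p = 0.0171). With 1 library left out, number 3 against 1 was no longer called for Gdf15 or Fgf21 without eGFP+ DMSO 3 (adjusted p 0.0845 and 0.0953), for Atf6b without either library numbered 3 (adjusted p 0.113 and 0.0525), or for Ppp1r15a and Sars without eGFP+ DMSO 1 or 3 or tdTomato+ DMSO 1 or 3 (adjusted p 0.0562 to 0.226). Number 5 against 1 was lost for Ddit4 and Ero1l without tdTomato+ DMSO 1 or 5 (adjusted p 0.0511 to 0.149).

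Atf3, a stress-induced factor downstream of ATF4, was the single listed gene that passed between groups in the model with group alone. Atf3 held 33.5, 89.7, 52.1 and 48.5 CPM in eGFP+ DMSO, 33.8, 88.4 and 52.8 in tdTomato+ DMSO, and 14.9, 7.93 and 12.5 in tdTomato+ Fsk. The 3 Fsk libraries were below the other 7 in every case, and the libraries numbered 3 were the highest of both DMSO groups. Fsk against DMSO in tdTomato+ cells gave a log2 difference of -2.31 (SE 0.45, adjusted p = 0.0359), and tdTomato+ Fsk against eGFP+ DMSO cells gave a log2 difference of -2.25 (SE 0.43, adjusted p = 0.0229). The call against tdTomato+ DMSO held without tdTomato+ DMSO 1 and was lost without each of the other 5 libraries (adjusted p 0.0666 to 0.157), without both libraries numbered 3 (adjusted p = 0.0801) and with limma-voom (adjusted p = 0.055). The call against eGFP+ DMSO was lost without any of the 3 Fsk libraries or eGFP+ DMSO 4 (adjusted p 0.064 to 0.106). Its sign was kept in each of these fits. Atf3 is also an immediate early gene of the dissociation and stress list, whose 5 genes summed to 288 to 505 CPM in Fsk libraries, 702 to 749.9 in tdTomato+ DMSO and 555 to 899.7 in eGFP+ DMSO libraries.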

How the data were processed

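The authors deposited 1 table of raw read counts per gene for 10 libraries of sorted cells. The values were checked to be whole numbers with unequal totals of 15355459 to 20408696, and 0 columns of per-sample values were left unused. The genome build mm10 is named in the submitters' processing notes. Which aligner, counter and annotation were used, and whether strand was, is not given in the sources used here. Genes whose exons overlap are therefore uncertain. A second row with the symbol Ddit3 held 0 reads and was not used. Gene positions, exon lengths and overlaps were taken by identifier from GENCODE M21, which held 52073 of the table's identifiers (91.8%), and promoters by symbol from RefSeq on GRCm38.p6.

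The deposited counts were modelled by edgeR 4.0.16 in R 4.3.3 (filterByExpr by group, TMM, glmQLFit with robust estimation, glmQLFTest, Benjamini-Hochberg adjustment over 16169 genes at 0.05). Groups were compared with group as the only term over all 10 libraries (7 residual degrees of freedom), and numbers with group and number as additive terms (4 residual degrees of freedom). The SE is the absolute log2 fold change over the square root of F. The plotted log2 CPM uses a prior count of 2. The model was tested on simulated counts, and the outcome is not given here.

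The replicate numbers were checked for pairing by the correlation of the deviations from the group means. Between the DMSO groups the 3 same-numbered pairs reached 0.492 to 0.649, above the bound of 0.1, and different numbers at most 0.177, so the numbers pair the libraries there, from the data and not from the labels. No 2 libraries were alike within sampling noise (lowest chi-square per degree of freedom 92.2).

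The 40 genes, the lists of other genes and the markers were chosen with earlier results of these data known. Values in every library are given for genes past the threshold, for Atf4, Ddit3, Asns, Xbp1, Hspa5 and Herpud1, for the most abundant and the most variable gene of each role, and for the 3 smallest p-values of each comparison. Alternatives were DESeq2 1.42.0, limma-voom (limma 3.58.1), RLE scaling, other filters on low counts, fewer libraries in the model and the replicate block. Leaving out both libraries numbered 3, leaving out ribosomal RNA and mitochondrial genes, number 3 against 1 with its alternatives, and the alternatives of the test of any number were chosen after seeing the data.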

Additional observations from a re-analysis of the deposited data

Results flagged for a closer look

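In the 4 eGFP+ DMSO libraries, 6 of the 40 genes had 1 library set apart from the other 3 by more than Dixon's 95% critical value, which chance gives in about 1 of 20 groups. The library numbered 3 stood high for 4 of them. It held 810 CPM of Atf4 (next 417), 484 of Ddit3 (next 91.3), 96.1 of Psat1 (next 23.2) and 223 of Dnajb9 (next 81.3). The gap to the nearest library was 0.837, 0.885, 0.975 and 0.884 of the range of the group, in the same order. The library numbered 1 stood high for the other 2 genes, with 141 CPM of Shmt2 (next 93.6, gap 0.832 of the range) and 97.1 of Creld2 (next 35.2, gap 0.864 of the range). The groups of 3 libraries were too small for this test. The share of all genes set apart in this way was not determined. The 40 genes also share their libraries, so 6 of 40 beside 1 of 20 is not read as an excess.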

How the results depend on the processing

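No result reversed its sign in any alternative where it was called. Genes called between tdTomato+ and eGFP+ DMSO cells rose from 0 to 13 with DESeq2, 18 with no filter on low counts, 14 with the replicate block and 68 with the block on the same-numbered pairs alone, and the 40 genes stayed at 0 called in each. Between Fsk and DMSO libraries of tdTomato+ cells the 92 called genes became 566 (DESeq2), 462 (no filter), 260 (only the 2 groups compared), 508 (block, 3.14% of all genes), 559 (block on pairs alone) and 50 (without both libraries numbered 3). Of the 40, DESeq2, no filter and the block on pairs alone called 1 each and the block 2, Psat1 at 1.64 (adjusted p = 0.014) and Phgdh at 1.27 (adjusted p = 0.0229). For tdTomato+ Fsk against eGFP+ DMSO cells the 220 genes became 798 (DESeq2), 800 (no filter) and 820 (block, 5.07% of all genes). Of the 40, DESeq2 called 1, no filter 2 and the block 2, Trib3 at -0.99 (adjusted p = 0.0444) and Vldlr at -1.02 (adjusted p = 0.0371). Of the other listed genes, the block also called Gdf15 in both, at -2.31 (adjusted p = 0.0149) and -3.17 (adjusted p = 0.001). In both comparisons with Fsk the libraries share only a number, since same-numbered pairs correlated at 0.109 and 0.403 in the first, where different numbers reached 0.312, and at 0.0703 at the lowest in the second.

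For number 5 against 1 the 863 genes became 2036 (DESeq2), 1350 (limma-voom), 1754 (no filter) and 2585 (DMSO libraries only), and the 7 of the 40 became 12 (DESeq2), 11 (limma-voom), 14 (DMSO libraries only) and 3 (without both libraries numbered 3). Hsp90b1 lost its call with RLE scaling (adjusted p = 0.0501). Hsp90b1, Creld2 and Pdia6 lost theirs with only the libraries numbered 1 and 5 (adjusted p 0.0714 to 0.0858), and with Sdf2l1 without both libraries numbered 3 (adjusted p 0.0509 to 0.0682). For number 3 against 1 the 1909 genes became 3168 (DESeq2) and 2902 (DMSO libraries only). For any number the 1647 genes became 4113 (DESeq2 likelihood ratio test), 3846 (no filter) and 3995 (DMSO libraries only), and the 12 of the 40 became 23 with DESeq2 and 23 with DMSO libraries only. The cause of these shifts was not tested.

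With each library left out in turn, genes called ranged from 22 to 75 for Fsk against DMSO in tdTomato+ cells, 51 to 469 for tdTomato+ Fsk against eGFP+ DMSO cells, 110 to 3631 for number 5 against 1, 0 to 3695 for number 3 against 1 and 104 to 5738 for any number. The corresponding counts of the 40 were 0 throughout in the group comparisons, 0 to 16, 0 to 20 and 0 to 27. In the group comparisons only libraries of the groups compared were left out. A group or number left with 1 library is assumed to vary like the others. The lowest count of a member in a library was 14 reads.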
